A study of Mus musculus with 8 samples.

Results

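The dual-specificity phosphatases and Sproutys are brakes of MAP kinase signalling, and many of their genes are inducible. Here 10 genes of these families were followed in mouse macrophages in which both genes for the Mediator kinases are targeted. The 10 were picked by name, as Dusp1, Dusp2, Dusp3, Dusp4, Dusp5, Dusp6, Dusp7, Dusp16, Spry1 and Spry2, and each symbol matched exactly 1 of the 34432 rows of the deposited table. Polyadenylated RNA had been sequenced from bone marrow-derived macrophages, which grow from marrow precursors in culture and were taken without treatment on day 7 of differentiation. The double knockout group (4 libraries) combined a Cdk8 flox/flox allele, cut by the Vav-iCre recombinase, with Cdk19null. The VavCre control group (4 libraries) is labelled with the recombinase only, so Cre driven by the Vav promoter, a promoter of blood-forming cells, is shared by all 8 libraries. The sources used here give neither mouse ages nor whether the libraries of a group came from separate animals. The p-values therefore set each difference only against the spread between these libraries, which may be technical. Cdk8 and Cdk19 are paralogous kinases of Mediator, the complex that links transcription factors to RNA polymerase, and the comparison asks whether the transcripts of these brakes differ when both kinases are targeted.

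MAP kinases (ERK, JNK and p38) are switched on by phosphorylation of a threonine and a tyrosine in one loop, and dual-specificity phosphatases remove both phosphates. Many of these phosphatase genes are themselves switched on by MAP kinase activity, which closes a negative feedback loop. Sprouty proteins act higher up, between growth factor receptors and ERK. In macrophages the loop is best known for limiting the response to microbial products, in which Dusp1 is a main brake on p38.

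The start regions of 3 members are printed because they include the single gene that was higher, the single gene that was lower, and the best known member of the family in macrophages. Each is the stretch from 250 bases before to 50 bases after the start that RefSeq annotates on GRCm38.p6, read on the gene's strand, and 9 of the 10 members had such an entry. Capitals mark every match to a motif that was searched. Dusp5 lies at chr19:53528895-53529194 on the plus strand, Dusp6 at chr10:99262981-99263280 on the plus strand, and Dusp1 at chr17:26508423-26508722 on the minus strand.
Dusp5: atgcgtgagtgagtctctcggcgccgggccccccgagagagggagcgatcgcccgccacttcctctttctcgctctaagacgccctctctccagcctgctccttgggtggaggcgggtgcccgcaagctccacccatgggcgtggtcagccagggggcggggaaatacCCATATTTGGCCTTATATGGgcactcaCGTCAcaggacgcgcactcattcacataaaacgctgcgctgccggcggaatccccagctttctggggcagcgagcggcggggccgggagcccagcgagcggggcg
Dusp6: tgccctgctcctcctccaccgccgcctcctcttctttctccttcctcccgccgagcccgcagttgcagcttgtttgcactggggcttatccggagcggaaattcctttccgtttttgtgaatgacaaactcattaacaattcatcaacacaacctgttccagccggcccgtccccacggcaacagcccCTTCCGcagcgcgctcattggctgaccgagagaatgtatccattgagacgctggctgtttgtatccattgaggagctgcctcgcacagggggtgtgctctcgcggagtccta
Dusp1: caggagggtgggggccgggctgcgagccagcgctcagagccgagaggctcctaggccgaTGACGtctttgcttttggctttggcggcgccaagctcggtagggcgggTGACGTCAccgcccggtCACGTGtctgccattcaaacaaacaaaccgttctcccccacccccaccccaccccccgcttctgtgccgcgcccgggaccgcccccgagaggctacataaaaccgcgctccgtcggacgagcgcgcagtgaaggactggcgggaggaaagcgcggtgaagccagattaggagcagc

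The stretch of Dusp5 held a pair of adjoining matches to the serum response element, searched by name, which began 82 and 72 bases before the start. This element was found on either strand in 1.63% of the 32851 stretches of the same length in the table, and in no other of the 9 members. Dusp1 held the full cyclic AMP response element TGACGTCA, 143 bases before the start, and was the only member of the 9 with it (1.79% of all stretches). Its E-box CACGTG, shared with Dusp2, stood 126 bases before the start (7.15% of all stretches). The shorter core TGACG, which lies within the full element, was found in Dusp1, Dusp2, Dusp5 and Dusp16 (20.8% of all stretches). Dusp6 held the ETS core CGGAAG on the opposite strand (16.9% of all stretches), and none of the 9 held the longer ETS sequence CCGGAAGT (3.89%), the AP-1 sequence TGACTCA or TGAGTCA (5.2%) or an NF-kB site searched by name (5.8%). These are matches of letters in a short window and do not show binding.

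All values are normalized read counts, the reads of a gene divided by 1 size factor per library. Depth was 20159190 to 21353207 reads in double knockouts and 17856715 to 20761744 in controls (exact two-sided permutation p = 0.171, 70 regroupings). Genes with at least 1 read numbered 13994 to 14319 in double knockouts and 14365 to 14580 in controls, without overlap (exact two-sided permutation p = 0.0286, the lowest value possible with 70 regroupings). Cdk19 stood at 373 ± 25.8 in double knockouts and 1452 ± 189 in controls (SD, n = 4 each, exact permutation p = 0.0286). Cdk8 stood at 347 ± 60.8 in double knockouts and 439 ± 24.5 in controls, with overlapping ranges (exact permutation p = 0.0571). Its log2 fold change of -0.35 was called (SE 0.12, limma adjusted p = 0.0374), but in only 8 of 19 settings (ways of processing and libraries left out), over which the adjusted p was 0.0078 to 0.104. The Cdk8 total includes exons that Cre does not remove, so it does not check the deletion. The libraries of each group differed in closeness, with a chi-square per gene of 8.01 for double knockouts 1 and 2 and 9.08 for 3 and 4 against 19.2 to 26.4 across these pairs. Among controls it was lowest for 2 and 3, at 9.29, and highest for 1 and 4, at 38.2. Of 7 macrophage markers, 2 were called higher and 5 lower (summed level 187379 to 205724 in double knockouts and 274675 to 291112 in controls). Proliferation markers were lower in double knockouts, 5 of 5, at a summed level of 1808 to 2018 against 15457 to 17147. Neutrophil markers were lower for 6 of 6 tested, at 317 to 590.0 against 1459 to 2479, and 1 of 4 tested monocyte markers was lower, at 490.3 to 596 against 1657 to 1813. Dendritic cell markers summed to 467 to 563 against 299 to 393 (1 of 2 tested higher). The higher gene was Itgax, at 434.6 to 496.5 against 239.8 to 339.6. Xcr1 was not called, and Flt3, Zbtb46, Cd209a and Ccr7 were under the filter. B cell markers summed to 74.1 to 147 against 113 to 162 (1 of 1 tested lower). Stromal markers summed to 107 to 293 against 238 to 337 (1 of 2 tested lower). T or NK cell markers reached at most 3.88 against 1.97, with Cd3e, Cd3d and Trac at 0 in every library, and mast cell or basophil markers at most 13 against 43.4. Of the erythroid or megakaryocyte list Hbb-bs and Hba-a1 were at 0 throughout, and Pf4, which macrophages also express, was called higher.

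The DUSP and Sprouty genes showed few and small differences between the genotypes. Of the 10 members, 9 passed the filter on low values (at least 10 in at least 4 libraries) and were tested. Among these, Dusp5 was higher and Dusp6 lower in double knockouts at an adjusted p below 0.05 (limma on log2 values, Benjamini-Hochberg over all 11675 genes tested), and the other 7 were not called. Across all genes tested, 46.6% were called, 22.9% higher and 23.8% lower. The same 2 members were those whose groups did not overlap, a state found for 42.9% of all genes tested. The median log2 fold change of the 9 was 0.07, beside 0.01 (0.005 before rounding) for all genes tested, and their median absolute log2 fold change was 0.15 beside 0.31. The largest change of a member, 0.46 for Dusp5, was exceeded in size by 34.3% of all genes tested. Standard errors of the 9 log2 fold changes ran between 0.06 and 0.30, with a median of 0.10 beside 0.12 for all genes. In bulk RNA, fewer cells that make a transcript and less of it per cell cannot be told apart. Proliferation and neutrophil markers moved with genotype in the same libraries, and their part in the values of the members was not tested.

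**Figure D1:**
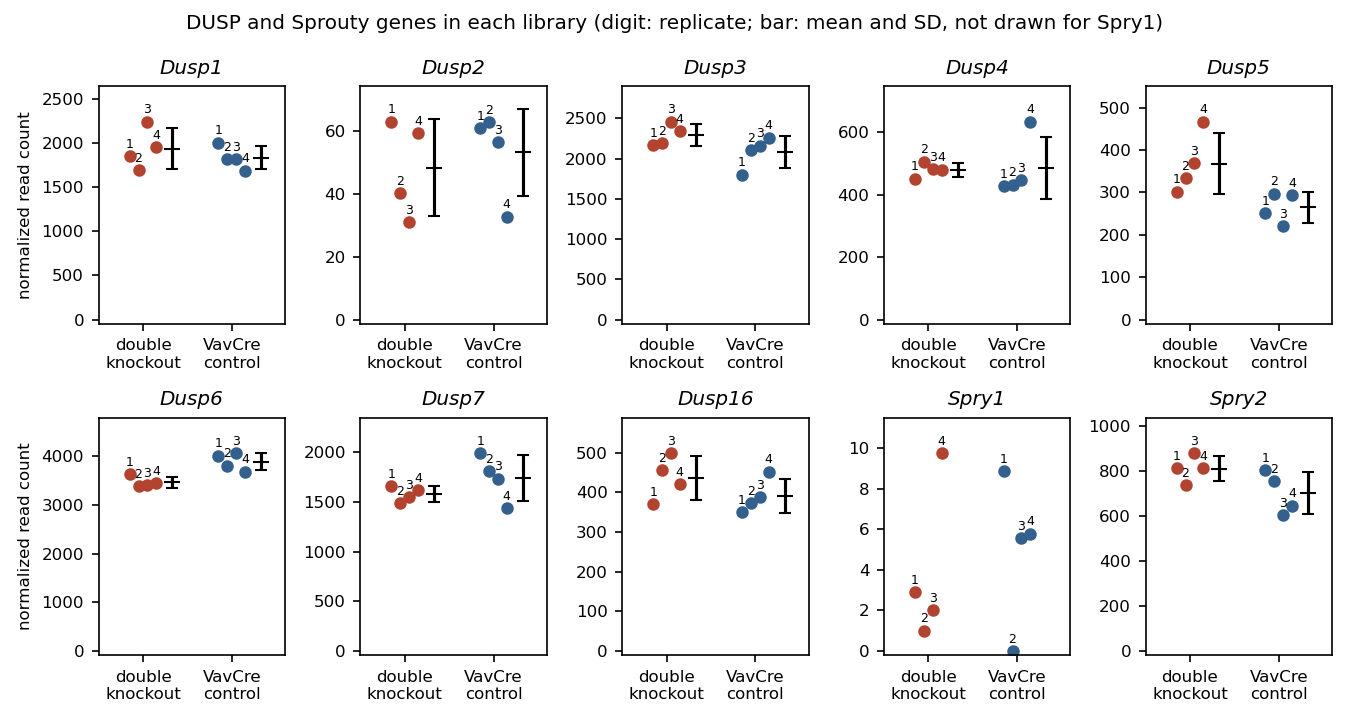
Normalized read count (y axis) of each of the 10 genes in the 4 double knockout libraries (left, red) and the 4 VavCre control libraries (right, blue), with digits giving the replicate and black bars the mean and SD. The groups are apart for Dusp5, at 302 to 467 against 219.7 to 297, and for Dusp6, at 3388 to 3630.0 against 3683 to 4064, and they overlap for the other 8 genes.

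Dusp5, the nuclear phosphatase that is selective for ERK, was the member with the largest difference. Dusp5 (ENSMUSG00000034765, chromosome 19, 53529109 to 53542431, mm10) had 302, 333, 368 and 467 normalized reads in double knockouts 1 to 4, against 252, 297, 219.7 and 293 in controls 1 to 4. Every double knockout library lay above every control library, by a margin of 302 over 297 between the nearest pair. The group values were 367 ± 71.6 in double knockouts and 265 ± 36.7 in controls (SD, n = 4 each), with a log2 fold change of 0.46 (SE 0.15, 95% interval 0.13 to 0.79, limma adjusted p = 0.027). The call was lost when double knockout 3 or 4 or control 1 or 3 was left out (limma adjusted p = 0.0568, 0.0788, 0.054 and 0.082), and when the close pairs of double knockout libraries, 1 with 2 and 3 with 4, were each averaged into 1 value (0.0649). Exons of Dusp5 overlap those of AC137853.2 on the opposite strand, a gene not analysed here.

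Dusp6 is the cytoplasmic ERK phosphatase whose transcript is a widely used readout of ERK activity. It (ENSMUSG00000019960, chromosome 10, 99263231 to 99267489, mm10) had 3630.0, 3388, 3406 and 3446 normalized reads in double knockouts, against 4009.7, 3808, 4064 and 3683 in controls. The lowest control stood just above the highest double knockout, at 3683 against 3630.0. The means were 3468 ± 111 and 3891 ± 177 (SD, n = 4 each), so that the double knockout level was 0.89 times that of controls. Its log2 fold change was -0.17 (SE 0.06, 95% interval -0.29 to -0.04, limma adjusted p = 0.0321). The member rests on 3371 to 3739 reads per double knockout library and 3662 to 4080 per control library, the deepest coverage of the 10. The call was lost without double knockout 2, 3 or 4 (limma adjusted p = 0.0781, 0.0755 and 0.0666), without control 1 or 3 (0.0651 and 0.103) and after the close pairs were averaged (0.121). It was also lost when low values were not filtered out (limma adjusted p = 0.0564), with limma run without trend and robust options (0.059) and with the replicate number as a block (0.0796).

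Dusp7, the close relative of Dusp6 in the cytoplasm, did not pass the test. Dusp7 (ENSMUSG00000053716, chromosome 9, 106368632 to 106375724, mm10) had 1660.1, 1488, 1546 and 1618 normalized reads in double knockouts, against 1989, 1808, 1733 and 1435 in controls. The 4 double knockouts lay within the range of the controls, which was set by control 1 at the top and control 4 at the bottom. The log2 fold change was -0.13 (SE 0.09, 95% interval -0.34 to 0.07, limma adjusted p = 0.264). Without control 4 it was -0.22 and was called (limma adjusted p = 0.0243), so that a single control library decides this call.

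Among the nuclear inducible phosphatases Dusp1, Dusp2 and Dusp4, no difference passed the test. Dusp1 (ENSMUSG00000024190, chromosome 17, 26505590 to 26562128, mm10), which acts on p38 and JNK as well as ERK, had 1849.5, 1694, 2242 and 1955 normalized reads in double knockouts, against 2005, 1816, 1819 and 1687 in controls. Only double knockout 3 lay outside the range of the controls. Its log2 fold change of 0.07 had a 95% interval of -0.12 to 0.27 (SE 0.09, limma adjusted p = 0.525), which in linear terms is 0.92 to 1.21 times the control level. Exons of Dusp1 overlap those of Ergic1 on the opposite strand, and Ergic1 averaged 2689 in double knockouts and 2728 in controls. The sources used here do not say whether counting used strand, so reads in the shared part cannot be assigned with certainty. Dusp3 and Spry1 overlap Gm20659 and Gm42922 in the same way, and neither of these was analysed here.

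Dusp4 (ENSMUSG00000031530, chromosome 8, 34807297 to 34819894, mm10), a nuclear phosphatase of ERK and JNK, had 451, 506, 482 and 479.5 normalized reads in double knockouts, against 428, 432, 447 and 634 in controls. Control 4 stood far above the other 3 controls, while the double knockouts were close together, with an SD of 22.2 around 479.7. The log2 fold change was 0.00 (0.003 before rounding, SE 0.13, 95% interval -0.28 to 0.28, limma adjusted p = 0.99). Without control 4 it was 0.14 (limma adjusted p = 0.244), and its sign depended on which library was left out.

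Dusp2 (ENSMUSG00000027368, chromosome 2, 127336159 to 127338376, mm10), a nuclear phosphatase known from activated immune cells, was read at a low level. It had 63.1, 40.2, 31.0 and 59.4 normalized reads in double knockouts, against 60.9, 62.8, 56.6 and 32.8 in controls. Both groups held high and low libraries, with control 4 alone at the bottom of its group, and the spread inside the groups was wider than the distance between their means. The log2 fold change of -0.15 had an SE of 0.30 and a 95% interval of -0.81 to 0.51 (limma adjusted p = 0.718). With 31 to 65 reads per double knockout library and 34 to 65 per control library, the 95% interval for Dusp2 spans 0.57 to 1.42 times the control level.

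Dusp16 and Dusp3 lie outside the ERK feedback loop in its narrow sense. Dusp16 (ENSMUSG00000030203, chromosome 6, 134715468 to 134792625, mm10), which prefers JNK and p38, had 369.9, 456, 499 and 421 normalized reads in double knockouts, against 351, 372, 388 and 452 in controls. Double knockouts 2 and 3 stood above the highest control, and the other two within the control range. The log2 fold change was 0.16 (SE 0.12, 95% interval -0.10 to 0.42, limma adjusted p = 0.307). Dusp3 (ENSMUSG00000003518, chromosome 11, 101971143 to 101987013, mm10) is a small atypical phosphatase without the MAP kinase-binding domain of the others. It had 2171, 2189, 2459.8 and 2341 normalized reads in double knockouts, against 1801, 2106, 2162 and 2258.5 in controls. All 4 double knockouts were above controls 1, 2 and 3, and 2 of them were below control 4. The log2 fold change of Dusp3 was 0.14 (SE 0.08, 95% interval -0.03 to 0.31, limma adjusted p = 0.167).

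Of the Sproutys, inhibitors of receptor signalling to Ras and ERK, one was well expressed and the other barely read. Spry2 (ENSMUSG00000022114, chromosome 14, 105891947 to 105896819, mm10) had 814, 739.8, 881 and 816 normalized reads in double knockouts, against 806, 755, 604 and 648 in controls. The upper controls, 1 and 2, reached the range of the double knockouts. The log2 fold change was 0.22 (SE 0.10, 95% interval -0.01 to 0.44, limma adjusted p = 0.109), and without control 1 it was 0.28 and was called (limma adjusted p = 0.0409). Spry1 (ENSMUSG00000037211, chromosome 3, 37639947 to 37644598, mm10) was near the limit of detection and did not pass the filter. It had 2.91, 1.005, 2.00 and 9.74 normalized reads in double knockouts, against 8.85, 0, 5.55 and 5.79 in controls. That is 16 reads in all in the double knockouts and 20 in the controls, too few to compare.

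**Figure D2:**
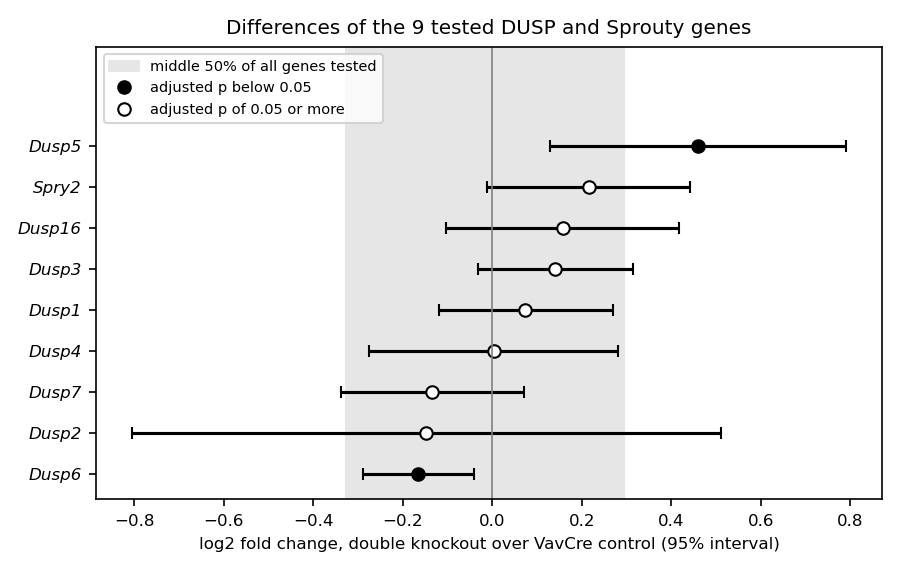
Log2 fold change of the double knockout over the VavCre control (x axis) for the 9 tested genes, with the 95% interval from limma; filled points passed an adjusted p of 0.05 and the grey band spans the middle 50% of all 11675 genes tested, -0.33 to 0.29 (0.295 before rounding). Of the 9 points, 8 lie inside the band and Dusp5 lies above it.

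**Figure D3:**
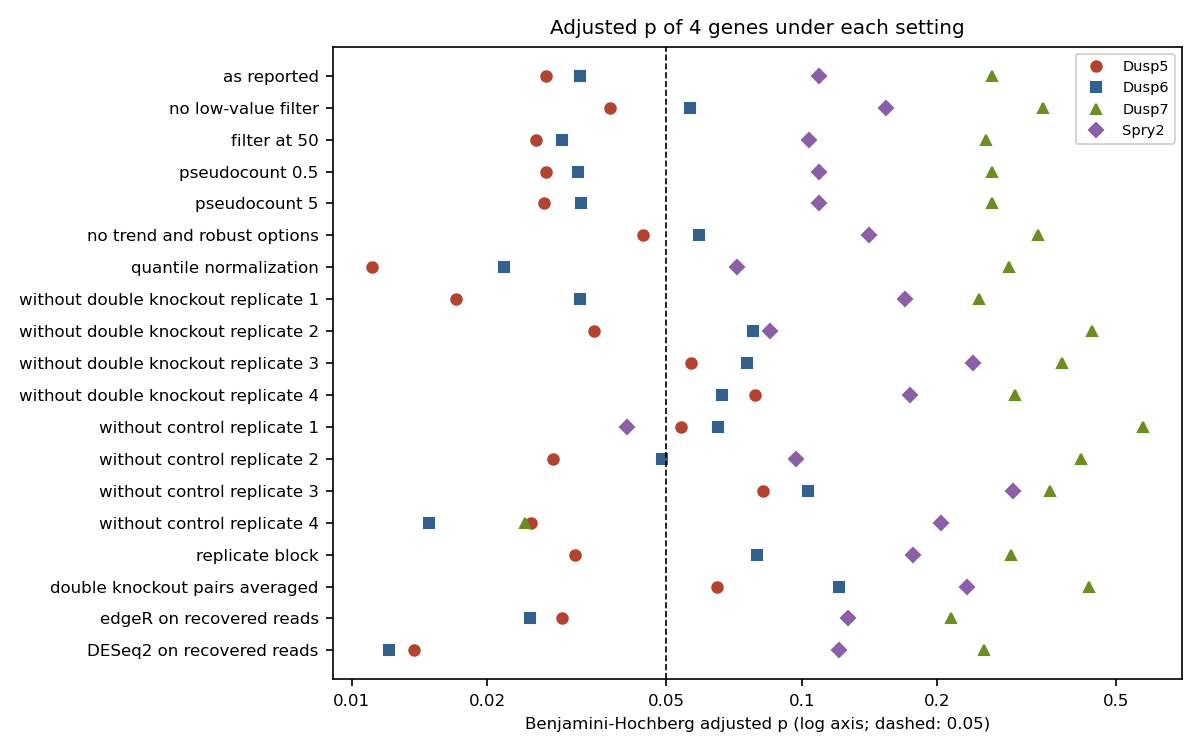
Benjamini-Hochberg adjusted p (x axis, logarithmic, dashed line at 0.05) of the 4 genes called under at least 1 setting, Dusp5, Dusp6, Dusp7 and Spry2, with 1 row per way of processing or library left out. Dusp7 lies left of the line only without control 4 (0.0243) and Spry2 only without control 1 (0.0409).

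Set beside each other per kilobase of exon, the 10 genes covered a wide range of levels. Dusp6 was highest, at 1107 ± 35.4 normalized reads per kilobase in double knockouts and 1242 ± 56.6 in controls (SD, n = 4 each), apart from the next gene in both groups. Dusp1 followed with 584 ± 69.8 and 553 ± 39.6. Dusp7 stood at 470.1 ± 22.8 in double knockouts and 519 ± 68.8 in controls, and Dusp3 at 489 ± 29.1 and 445 ± 42.1. In controls the libraries of Dusp1, Dusp7, Dusp3 and Spry2 formed a chain in which each gene overlapped the next. The order of neighbours in this chain is not resolved by these ranges. Every control library of Dusp1 (at least 509.4) lay above those of Dusp3 (at most 482.4) and Spry2 (at most 386.1). Every control library of Dusp7 (at least 427.6) lay above those of Spry2. In double knockouts Dusp3 came before Dusp7 in the order of means, but the libraries of that pair overlapped too. Spry2 held 389.5 ± 27.7 and 337 ± 44.8, Dusp4 175 ± 8.09 and 177 ± 36.3, and Dusp5 149 ± 28.9 and 107 ± 14.8. Dusp4 lay clear of Dusp5 in controls, where no library of Dusp5 exceeded 120.0 and none of Dusp4 was below 156. In double knockouts Dusp5 reached 189 and overlapped Dusp4, which spanned 165 to 185. At the lower end came Dusp16 (56.0 ± 7.02 and 50.1 ± 5.60), Dusp2 (24.2 ± 7.67 and 26.6 ± 6.95) and Spry1, which did not exceed 3.35 in double knockouts or 3.04 in controls. All 10 genes together took 0.0535% to 0.057% of the reads in double knockouts and 0.0571% to 0.0583% in controls.

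**Figure D4:**
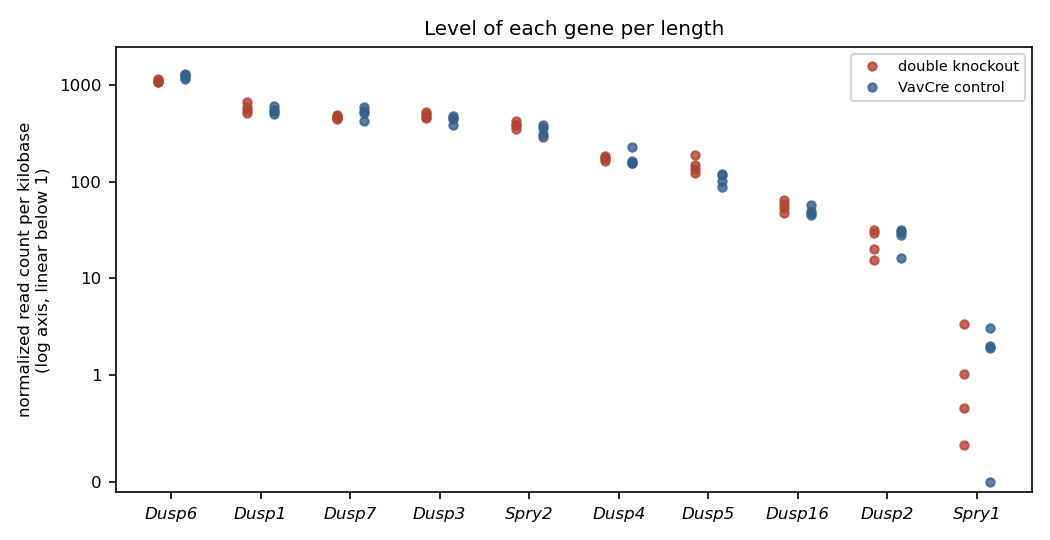
Normalized read count per kilobase of exon (y axis, logarithmic above 1 and linear below) of the 10 genes, ordered by their control mean, in 4 double knockout libraries (left of each pair, red) and 4 VavCre control libraries (right, blue). Dusp6 stands alone at the top at 1082 to 1159 in double knockouts and 1176 to 1297.5 in controls, and Spry1 at the bottom.

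Within a group, the members did not share their high and low libraries. Control 1 held the highest control value of Dusp1, Dusp7, Spry1 and Spry2 and the lowest of Dusp3, Dusp4 and Dusp16. Control 4 was the reverse for several of these: it held the highest control value of Dusp3, Dusp4 and Dusp16 and the lowest of Dusp1, Dusp2, Dusp6 and Dusp7. These are the control libraries that differed most over all genes. Among double knockouts, library 2 held the lowest value of 5 members and library 3 the highest of 4. Over the 8 libraries, the genes closest in profile to Dusp5 were Fam53a, Rab43 and Gpc1, with root mean square differences of 0.12, 0.13 and 0.13 between centred log2 profiles. Those closest to Dusp6 were Acsl5, Uso1 and Utp11, at 0.04, 0.04 and 0.05. The search covered 10307 genes with a mean of at least 50.

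The remaining genes of the pathway were counted in lists chosen by role, and no test compared the lists with each other or with the members. The counts below stand beside a share of 22.9% called higher and 23.8% called lower over all genes tested. Among the other MAP kinase phosphatases and Sprouty relatives, 1 of 6 tested was higher and 2 were lower, with a median log2 fold change of -0.35. Spred1, a Sprouty-related inhibitor that brings neurofibromin to Ras, fell to 4861 ± 141 in double knockouts, against 7938 ± 495 in controls (log2 fold change -0.71, SE 0.06, limma adjusted p = 1.82e-06). Spred3, a relative of Spred1, fell to 78.8 ± 11.9, against 136 ± 9.19 (limma adjusted p = 0.00224). Dusp8, the single gene of the list that was higher, is given here after its values were seen: it had 31.2 to 47.0 in double knockouts and 10.6 to 22.6 in controls (limma adjusted p = 0.0108). Spred2 and Dusp10, a phosphatase of p38 and JNK, were not called (limma adjusted p = 0.0565 and 0.196), and Spry4 was under the filter.

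Atypical phosphatases outside the 10 were called higher for 6 and lower for 2 of 11 tested, with a median log2 fold change of 0.38. Dusp18 had 63.0 to 105 in double knockouts and 29.5 to 44.4 in controls (limma adjusted p = 0.00253), and Dusp23 had 177 ± 5.13 in double knockouts and 111 ± 14.1 in controls (limma adjusted p = 0.00213). The cofilin phosphatases, which share the fold but not the substrates, went opposite ways: Ssh1 had a log2 fold change of 0.74 and Ssh2 of -0.88 (limma adjusted p = 0.000181 and 4.28e-05). The number called higher was 3 with the close double knockout pairs averaged, and also 3 without double knockout 3, without double knockout 4, without control 3 or without control 4. The number called lower was 1 in these 5 cases, and also without double knockout 1 or double knockout 2. It was 1 as well with limma run without trend and robust options.

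The cascade that feeds the ERK brakes was called higher for 9 and lower for 2 of 20 genes, with a median log2 fold change of 0.10. Gab1, a docking protein that links receptors to Ras, rose 2.92-fold to 248 ± 13.9, against 84.5 ± 8.01 in controls (limma adjusted p = 2.34e-06). Gab2, its relative, rose to 2791 ± 136, against 1860.2 ± 227 (0.000132). Nras, a Ras GTPase, rose to 5603 ± 254, against 3624 ± 397, and Mapk3, which encodes ERK1, to 4128 ± 235, against 3371 ± 177 (limma adjusted p = 3.75e-05 and 0.00281). After averaging the close double knockout pairs, 5 genes of the list were called higher and 1 lower. The lower count was also 1 without any one of double knockouts 1 to 4 or without control 3. It was 1 as well without the low-value filter, without trend and robust options, with quantile normalization and with the replicate block. Of 18 tested genes of the p38 and JNK cascades, 1 was higher and 5 lower, with a median of 0.01. Tab2, an adaptor of the kinase TAK1, had a log2 fold change of 0.46, and Mapk14, the main p38 kinase, of -0.40 (limma adjusted p = 9.37e-05 and 0.00028). Map3k3 and Map3k5, kinases at the head of these cascades, fell with log2 fold changes of -0.55 and -0.49 (limma adjusted p = 0.000812 and 0.00226). The number called higher was 3 without control 4, and 2 with DESeq2 on the recovered reads.

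Kinases downstream of MAP kinases were higher for 4 and lower for 3 of 9, with a median log2 fold change of 0.13. Rps6ka5, which encodes the chromatin kinase MSK1, fell to 224 ± 22.4, against 553 ± 20.6 in controls (limma adjusted p = 1.07e-06). The ribosomal S6 kinase gene Rps6ka1 also fell, with a log2 fold change of -0.59, while its relative Rps6ka2 and the p38 target Mapkapk5 rose by 0.72 and 0.42 on that scale (limma adjusted p = 1.63e-05, 0.000327 and 0.00205). Other brakes on Ras and MAP kinase signalling were higher for 4 and lower for 9 of 20, with a median of -0.27. Ptpn7, a tyrosine phosphatase of blood cells that acts on ERK and p38, fell to 1491 ± 54.9, against 3704 ± 62.0, the largest fall among the named genes of that list (log2 fold change -1.31, SE 0.06, limma adjusted p = 5.63e-09). Dok2, an adaptor that restrains Ras, fell to 909 ± 30.9, against 1756 ± 117, while Rasa3, which switches off Ras-like GTPases, rose to 3013 ± 62.7, against 1915 ± 36.4 (limma adjusted p = 6.07e-07 and 1.4e-06). Pebp1, which encodes a Raf inhibitor, rose to 4245 ± 310.0, against 2560 ± 268 (limma adjusted p = 2.37e-05).

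Immediate-early and ERK output genes were called lower for 11 and higher for 6 of 21 tested, with a median log2 fold change of -0.55. Ccnd1, the cyclin D1 gene, had the smallest adjusted p of the list and fell to 6593 ± 220.4 in double knockouts, against 26444 ± 1283 in controls (4.01-fold lower, limma adjusted p = 4.23e-10). Fos, an immediate-early transcription factor, fell to 1164 ± 133 in double knockouts, against 3616 ± 163 in controls (log2 fold change -1.64, SE 0.08, limma adjusted p = 2.22e-08). Plaur, the urokinase receptor, fell to 833 ± 77.6, against 1766 ± 119 (limma adjusted p = 8.05e-07). Atf3, a stress-induced factor, went the other way, at 3908 ± 205 against 2094 ± 137 (6.07e-07). Proliferation markers fell in the same libraries, and their part in this list was not tested. Receptors upstream were lower for 8 and higher for 4 of 15, with a median of -0.32. Of the 4 with the smallest adjusted p, 3 fell and 1 rose. Csf1r, the M-CSF receptor and an input to ERK, fell to 25388 ± 1349 in double knockouts, against 44395 ± 3620 in controls (limma adjusted p = 2.39e-06). Itgb2, the beta chain of the leukocyte integrins, fell to 8979 ± 724, against 15880 ± 928 (limma adjusted p = 2.06e-06). Of the receptor kinases that recognise dying cells, Axl fell to 1085 ± 163, against 2527 ± 47.9, and Mertk rose to 2019 ± 245, against 958 ± 115 (limma adjusted p = 1.06e-06 and 6.4e-06). With the close double knockout pairs averaged, 2 receptors were called higher and 6 lower.

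**Figure D5:**
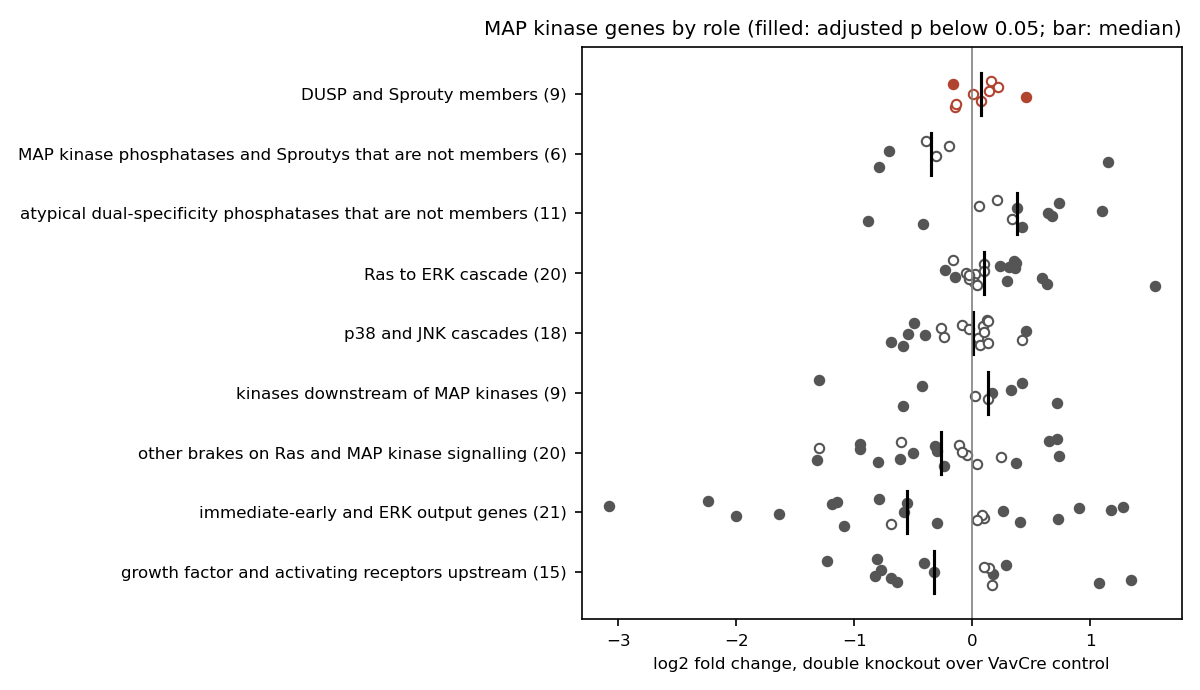
Log2 fold change of the double knockout over the VavCre control (x axis) for each tested gene of the 9 DUSP and Sprouty members (red, top row) and of 8 further lists, with the number of genes tested in brackets, filled points for an adjusted p below 0.05 and a bar at the median. The members span -0.17 to 0.46, and the immediate-early and ERK output genes -3.08 to 1.28.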

How the data were processed

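RNA was read as pairs of 150 bases from a Kapa mRNA library kit, per the labels' protocols. The submitters' processing notes name Salmon 1.4.0, DESeq2 and mm10 without their roles, and the sources used here give no annotation release and no strand setting. The deposited values are a signal: normalized read counts per gene. That they are reads divided by 1 size factor per library was read from the values: with factors of 0.9011 to 1.037, 100% of values came out whole in all 8 libraries (tolerance 0.01). For double knockouts 2 and 3 the low values settle little. Their factors of 0.9949 and 0.9997 are so close to 1 that such values look like whole reads without any division. Higher values were not whole as deposited, such as Dusp6 at 3388.3 in double knockout 2 and 3406.1 in double knockout 3.

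Genes that reached 10 in 4 or more libraries were compared as log2(value + 1), a scale that understates changes of low genes, with limma 3.58.1 in R 4.3.3 (trend and robust options, two-sided, genotype only, Benjamini-Hochberg over all genes tested). The pipeline was run on simulated data with 200 changed genes, far fewer than were called here, so that run does not check the calls of the members. Alternatives were edgeR 4.0.16 and DESeq2 1.42.0 on the recovered reads, other filters, pseudocounts and normalization, libraries left out and a replicate block. In the labels, same-numbered libraries shared only a number. Their deviations correlated at -0.05 to 0.03, which showed no strong common signal but cannot exclude a pairing. Depth and targeted genes were compared by exact permutation.

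Coordinates and exon lengths are from GENCODE on mm10, which held all 10 gene identifiers, and start regions from RefSeq. The starts of these sources can differ. For Dusp1, on the minus strand, the GENCODE gene reaches 26562128, while the RefSeq stretch lies at 26508423 to 26508722. Motif positions count from the RefSeq start. Members and lists were chosen with earlier results of these data known. From each list up to 4 genes were taken by smallest adjusted p, with a mean of at least 50, and profile neighbours by root mean square difference.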

Additional observations from a re-analysis of the deposited data

Results flagged for a closer look

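Dusp4 had 634 (633.6) normalized reads in control 4, against 428 to 447 in the other 3 controls, a gap of 0.904 of the group's range. In 3 genes of the pathway lists a library also stood apart from the rest of its group. Ssh2 had 2039 in double knockout 2, against 1943 to 1958 in the other double knockouts. Nras had 4218 in control 4, against 3389.5 to 3463 in the other controls, and Ptpn7 had 3611 in control 2, against 3728 to 3741. These are 4 of 104 groups of 4 libraries examined, and chance alone gives such a library in about 1 group in 20.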

How the results depend on the processing

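Across 19 settings, the reported one included, Dusp5 kept its sign (log2 0.34 to 0.55) and was called in 14, and Dusp6 kept its sign (-0.19 to -0.14) and was called in 10. Members called lower numbered 0 when no low values were filtered out, when limma ran without its trend and robust options, and with the replicate block (Dusp6 limma adjusted p = 0.0564, 0.059 and 0.0796). Averaging the close double knockout pairs left 0 members called higher and 0 lower. Leaving out 1 library gave 0 to 1 members higher and 0 to 2 lower, and among all genes 2277 to 2616 higher and 2392 to 2717 lower. The replicate block left 2215 genes higher and 2434 lower, and Dusp5 called (limma adjusted p = 0.0314). Recovered reads gave 2593 genes higher and 2786 lower with edgeR, and 2787 and 2891 with DESeq2, each with 1 member higher and 1 lower. Dusp4, never called, changed sign with edgeR (-0.023) and DESeq2 (-0.017), and ran from -0.051 to 0.138 over the libraries left out. Dusp2, also never called, ran from -0.361 to 0.043. Dusp1, Dusp3 and Dusp16 kept their sign and were called in 0 of the 19. The cause of these changes was not tested. Dividing by the longest transcript kept the order of the 10 levels in both groups. In controls it set Dusp1, at 792 ± 56.6 per kilobase, further above Dusp7, at 542 ± 71.8 (SD). Few reads limit Dusp2 and Spry1.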
